A study of Mus musculus with 9 samples.

Results

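The genes Kap, Slc7a13, Odc1, Acsm3 and Nudt19 are transcripts of the renal proximal tubule that androgens are known to raise in the mouse kidney. They were taken by symbol, as 5 of the 21950 mRNA genes in the files, and all 5 were among the 14537 genes kept for testing, whose FPKM averaged 0.1 or more over the libraries. FPKM, fragments per kilobase of transcript relative to all mapped fragments, is a level that is already divided by transcript length. The genes were selected on their FPKM in these same 9 libraries, with the values of all 3 groups known, so their differences are given as descriptions, without a test.

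Total RNA of the renal cortex was sequenced from 3 control, 3 dbdb and 3 dbR mice, 1 library per mouse, after removal of ribosomal RNA. All mice were male, on the C57BL/KsJ background and 15 weeks old. The control mice (db/m) were littermates heterozygous for the db mutation of the leptin receptor and the other groups (db/db) were homozygous, a mutation that takes away the signalling form of the receptor in every tissue and leaves the mouse obese and diabetic. The dbR mice received rosiglitazone, a drug that activates PPARγ, by gavage (20 mg/kg/day) from week 7 of age, over 8 weeks, and the dbdb mice received vehicle. Whether the control mice were gavaged is not given in the sources used here. No group had its androgens changed on purpose, so the word androgen-responsive comes from textbook knowledge and not from a manipulation in these mice.

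Testosterone acts on proximal tubule cells and sets the male pattern of gene expression of the mouse kidney. Kap (kidney androgen-regulated protein) is the classic transcript of this kind. Slc7a13 (AGT1) is an amino acid transporter of the last, straight segment of the proximal tubule (S3). Odc1 (ornithine decarboxylase) makes the first step of polyamine synthesis, Acsm3 is a mitochondrial synthetase of medium-chain acyl-CoA, and Nudt19 is a peroxisomal enzyme that splits coenzyme A.

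All 9 markers of the proximal tubule (Lrp2, Cubn, Slc34a1 and others) were above 0 in every library, and their summed FPKM ranged from 6510 to 6997 in control, from 5349 to 6463 in dbdb and from 6529 to 6601 in dbR. The relative depth of the libraries was between 0.917 and 1.14, with control replicate 1 set to 1. Control replicate 3 stood apart in single genes: 10 of 11615 genes that averaged an FPKM of 1 or more lay under 10% of their level in every other library, against at most 3 in any of the other libraries. One of these was Hsp90aa1, a chaperone of steroid receptors, at an FPKM of 2.14 in this library and 98.0 or more elsewhere. Control replicate 3 also held the highest control level of Kap, Slc7a13, Odc1 and Acsm3, so their fold differences are given with and without it.

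Kap lies on chromosome 6 (GRCm38, chr6:133849851-133853762, minus strand), and at least 99.4% of its FPKM in every library came from its 4-exon transcript ENSMUST00000048032. The bases before the start sites of Kap and of Acsm3, the gene of the 5 with the widest difference between control and dbdb, are shown because both genes were far lower in dbdb than in control. The sequences are those of RefSeq (GRCm38.p6), read 5′ to 3′ on the strand of the gene, and each ends before the outermost start that GENCODE or RefSeq gives the gene. They cover 155 bases at chr6:133853763-133853917 (minus strand) for Kap and 210 bases at chr7:119760673-119760882 (plus strand) for Acsm3.
Kap: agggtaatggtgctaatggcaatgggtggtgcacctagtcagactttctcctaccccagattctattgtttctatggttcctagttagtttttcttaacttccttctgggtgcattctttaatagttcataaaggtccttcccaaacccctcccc
Acsm3: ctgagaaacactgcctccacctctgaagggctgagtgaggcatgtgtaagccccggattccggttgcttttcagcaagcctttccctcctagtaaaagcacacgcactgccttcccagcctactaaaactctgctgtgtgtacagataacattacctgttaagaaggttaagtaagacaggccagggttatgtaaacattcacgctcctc

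The promoter table of RefSeq places the Kap start site 95 bases downstream of the stretch shown, inside the GENCODE transcript. TATAAA began 31 bases before this RefSeq start site, so it is not in the stretch shown, and it was in none of the 3 other promoters that matched (Odc1, Acsm3 and Nudt19). The share of bases that are G or C in the 250 bases before the table's start sites was 45.6% for Kap, 49.2% for Acsm3, 56.4% for Nudt19 and 80.0% for Odc1. The windows searched held 250 bases before and 50 after each start site on both strands, and 13.6% of all 32817 windows held TATAAA. The androgen response half-site AGAACA was in 0 of the 4 members' windows, against 19.0% of all windows, and the full element, that half-site followed by 3 bases and its inverted repeat, was in 0 of 4, against 3 windows of all. Of 12 other genes that androgens are known to raise, 9 had a window, and AGAACA was in those of Adh1 and Cyp4b1. A window without these letters says nothing about elements elsewhere in the gene.

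Kap was the most abundant nuclear transcript of the control cortex. Its FPKM was 34964, 35883 and 45755 in control, 5278, 5728 and 4796 in dbdb, and 6173, 6194 and 7646 in dbR. The 3 control libraries were far above the other 6, and the 3 dbR libraries were all above the 3 dbdb libraries, by much less. The means were 38868 ± 5983 (control), 5267 ± 466 (dbdb) and 6671 ± 844 (dbR; SD, n = 3 each). Kap alone held 5.13% to 6.27% of the summed mRNA FPKM in control, 0.806% to 0.915% in dbdb and 0.882% to 1.16% in dbR. The control mean was 7.38 times the dbdb mean, and 6.73 times without control replicate 3. On the log2(FPKM + 0.1) scale the difference was -2.88 ± 0.19 (standard error) in dbdb vs. control, the 21st lowest of 14537 genes. Between dbR and dbdb it was 0.34 ± 0.19. On the FPKM scale, not log2, the dbR mean covered 4.18% of the distance from the dbdb mean to the control mean. Under quantile normalization, which gives every library the same set of values, the log2 differences were -2.19 (dbdb vs. control) and 0.10 (dbR vs. dbdb).

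Slc7a13 (chr4:19818725-19842218, plus strand), which carries aspartate, glutamate and cystine at the apical membrane of S3, lay between the other groups in dbR. Its FPKM was 448, 398 and 566 in control, 55.4, 60.4 and 61.7 in dbdb, and 101, 115 and 156 in dbR. The 3 groups did not overlap, and the lowest dbR library was well above the highest dbdb library. The means were 471 ± 86.7 (control), 59.2 ± 3.35 (dbdb) and 124 ± 28.6 (dbR; SD, n = 3 each). The control mean was 7.96 times that of dbdb, and 7.15 times without control replicate 3. The log2 difference was -2.98 ± 0.16 in dbdb vs. control. Slc7a13 had the largest positive difference of the 5 genes in dbR vs. dbdb, 1.04 ± 0.16, the 90th highest of all genes tested, and a mean ratio of 2.09. On the FPKM scale, not log2, the dbR mean covered 15.7% of the distance from the dbdb mean to the control mean. It remained at 26.3% of the control mean.

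Odc1 (chr12:17544794-17551505, plus strand) followed the same order of groups with a wider spread in control. Its FPKM was 301, 233 and 536 in control, 102, 104 and 85.4 in dbdb, and 119, 138 and 132 in dbR. The highest control library was 2.30 times the lowest, whereas the ratio was 1.22 within dbdb and 1.16 within dbR, and the 3 groups did not overlap. The means were 357 ± 159 (control), 97.0 ± 10.1 (dbdb) and 130 ± 9.63 (dbR; SD, n = 3 each). The control mean was 3.68 times the dbdb mean and 2.75 times without control replicate 3, and the log2 difference was -1.79 ± 0.24 with all libraries and -1.45 ± 0.12 without it. The log2 difference between dbR and dbdb was 0.42 ± 0.24.

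Acsm3 (chr7:119760923-119787513, plus strand) had the lowest level of the 5 relative to control in the db/db cortex. Its FPKM was 127, 116 and 247 in control, 11.2, 11.01 and 8.99 in dbdb, and 7.44, 8.54 and 8.48 in dbR. Every dbdb library was below every control library, and every dbR library was below every dbdb library. The means were 164 ± 72.8 (control), 10.4 ± 1.21 (dbdb) and 8.15 ± 0.618 (dbR; SD, n = 3 each). The control mean was 15.7 times that of dbdb and 11.7 times without control replicate 3. The log2 difference of -3.88 ± 0.24 in dbdb vs. control was the 8th lowest of 14537 genes, and that of dbR vs. dbdb was -0.34 ± 0.24. The level was divided between the transcripts ENSMUST00000063770, with 37.9% to 56.8% of the gene per library, and ENSMUST00000106527, with 38.7% to 59.3%. Both were low in dbdb: the first had a mean FPKM of 80.3 ± 32.3 in control and 4.85 ± 1.17 in dbdb, and the second 77.4 ± 37.9 and 4.73 ± 0.406 (SD, n = 3 each). Acsm3 overlaps Eri2 on the opposite strand, whose FPKM of 2.05 to 3.66 was below that of Acsm3 in every library.

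Nudt19 (chr7:35547185-35556304, minus strand) differed least. Its FPKM was 267, 190 and 238 in control, 139, 140 and 147 in dbdb, and 107, 121 and 116 in dbR. The order of the groups was that of Acsm3, with control highest, dbR lowest and no overlap. The means were 232 ± 39.2 (control), 142 ± 4.04 (dbdb) and 115 ± 6.69 (dbR; SD, n = 3 each). The control mean was 1.63 times that of dbdb, and the log2 difference was -0.69 ± 0.11 in dbdb vs. control, the 783rd lowest of all genes. The log2 difference between dbR and dbdb was -0.31 ± 0.11. Nudt19 overlaps a gene of antisense RNA on the opposite strand, which is not analysed here. The libraries kept the strand, but whether the quantification used it is not given in the sources used here.

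**Figure D1:**
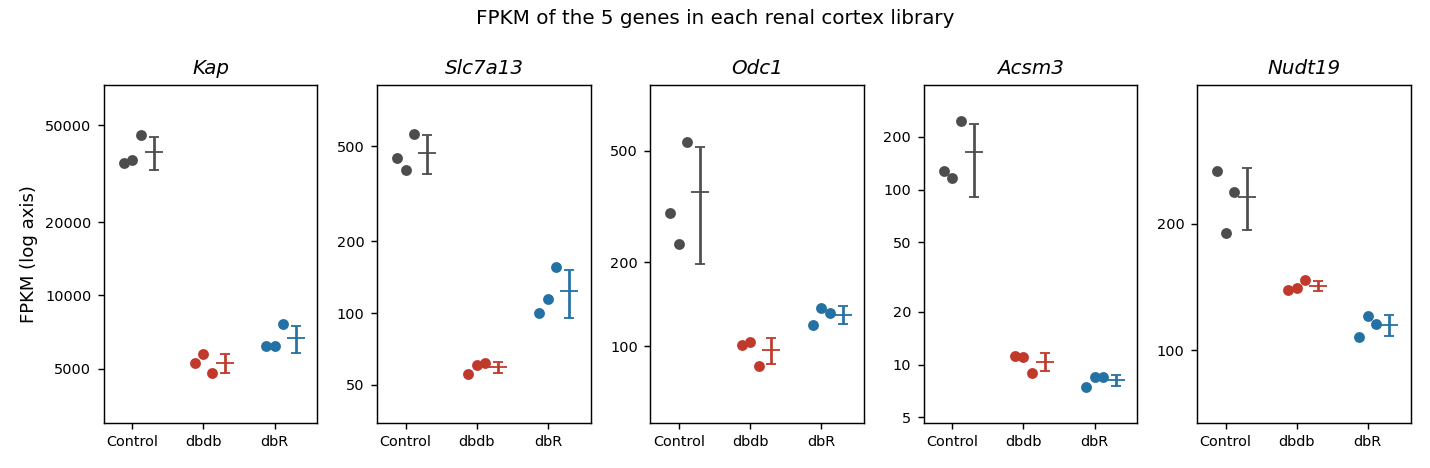
FPKM of Kap, Slc7a13, Odc1, Acsm3 and Nudt19 in each library, on log axes whose range differs between panels. Points are the 3 libraries of each group in order of replicate, and the mark beside them is the mean with its SD. For all 5 genes every control point lies above every dbdb and dbR point, and dbR lies above dbdb for Kap, Slc7a13 and Odc1 and below it for Acsm3 and Nudt19.

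All 5 genes were thus below control without overlap in dbdb, a pattern shown by 21.2% of the genes tested, and in dbR, shown by 21.1%. Since the 5 were chosen with these values known, nothing is read from the counts. In dbR vs. dbdb, 3 of the 5 were higher without overlap (10.7% of genes tested) and 2 were lower (11.9%). The comparisons dbdb vs. control and dbR vs. dbdb share the 3 dbdb libraries, so opposite directions of a gene in the 2 comparisons are not independent. In dbR vs. control the log2 difference was -2.54 ± 0.19 for Kap, -1.94 ± 0.16 for Slc7a13, -1.37 ± 0.24 for Odc1, -4.23 ± 0.24 for Acsm3 and -1.004 ± 0.11 for Nudt19. In a sample of whole cortex, fewer cells of a type and less RNA per cell cannot be told apart.

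The 12 other genes known to be raised by androgens in the mouse kidney or liver were lower in dbdb than in control in 10 cases and higher in none. A gene was called at an adjusted p under 0.05 (limma, Benjamini-Hochberg over 14537 genes), and 26.4% of all genes were called in this comparison, 13.4% as lower. The median log2 difference was -1.68 over the 12 genes and -0.0030 over all genes tested. This list was written with results of these libraries known, so the count is a description of the list.

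Slco1a1, an organic anion transporter of the male kidney, had an FPKM of 210, 201 and 382 in control and 3.49, 3.16 and 14.9 in dbdb, and it fell by 5.49 ± 0.55 on the log2 scale (adjusted p = 0.00013, limma), or by 6.20 without dbdb replicate 3. Cyp7b1, which hydroxylates oxysterols and steroids, fell from 57.5, 44.4 and 81.1 in control to 3.45, 2.24 and 4.05 in dbdb, with a log2 difference of -4.19 ± 0.23 (adjusted p = 7.5e-06, limma). Cyp4a12a, the male form of the fatty acid ω-hydroxylases, had 108, 110 and 164 in control and 31.7, 18.1 and 29.1 in dbdb, with a log2 difference of -2.28 ± 0.25 (adjusted p = 0.00020, limma). The control and dbdb libraries did not overlap for any of these genes. The other genes that fell were Cyp4b1 (-1.84), Slc22a30 (-1.78), Adh1 (-1.74), Cyp2j13 (-1.61), Cyp2e1 (-1.09), Slc22a6 (-0.58) and Gusb (-0.49, β-glucuronidase), each given as a log2 difference. Ass1 (0.08 ± 0.11) and Cyp4a12b (-0.17 ± 0.19) were not called, and the reads of Cyp4a12b are hard to separate from those of its near copy Cyp4a12a. Within the control group, replicate 3 had the highest level of 11 of these 12 genes, as it had of 4 of the 5 members, against 35.7% of all genes tested.

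**Figure D2:**
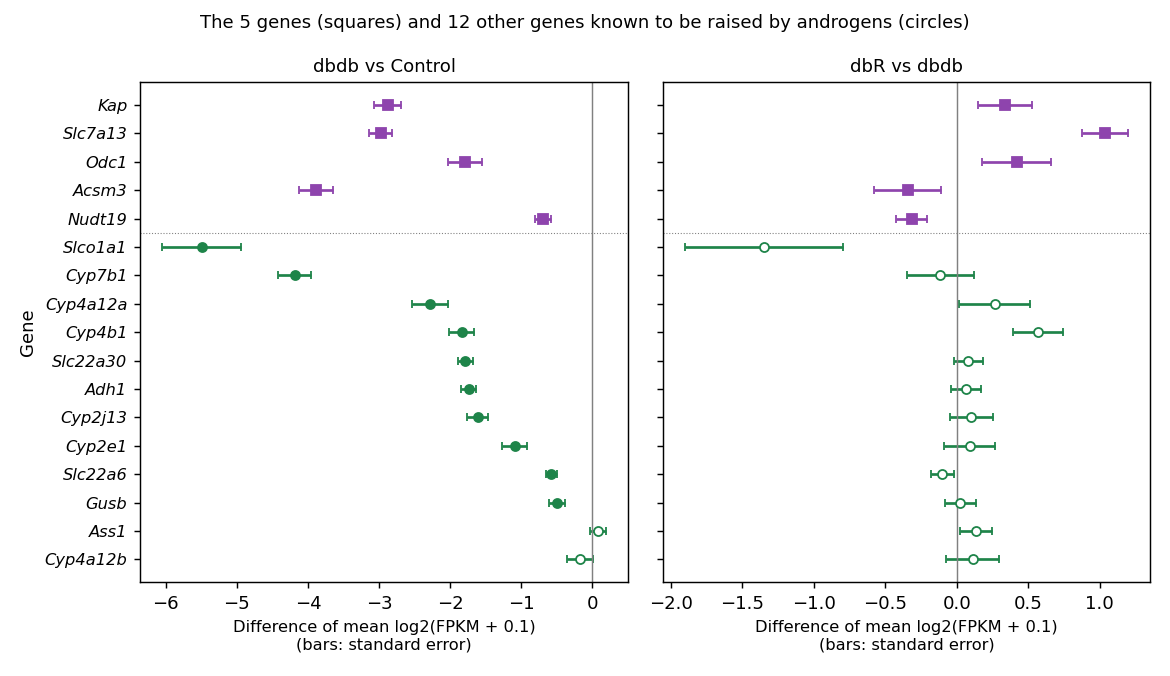
Difference of mean log2(FPKM + 0.1) in dbdb vs. control (left) and dbR vs. dbdb (right), with bars for the standard error, for the 5 genes (squares, not tested) and 12 other genes known to be raised by androgens (circles, filled where called). The left panel holds 10 filled circles below 0, and the right panel holds none filled.

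In dbR vs. dbdb, 0 of these 12 genes were called (of all genes tested 0.743% were, 0.564% as higher and 0.179% as lower). An unadjusted p under 0.05 (limma) was found for 2 of 12 (Cyp4b1 and Slco1a1), and for 2541 of all 14537 genes tested. The median log2 difference of the 12 was 0.09. Cyp4b1, the gene of the 12 with the largest positive value, had an FPKM of 679, 610 and 445 in dbdb and 725, 873 and 947 in dbR, without overlap, and a log2 difference of 0.57 ± 0.17 (adjusted p = 0.14, limma). Slco1a1 had 1.89, 1.35 and 3.58 in dbR, a log2 difference of -1.35 ± 0.55 from dbdb (adjusted p = 0.25, limma). With dbdb replicate 3, which lay far above the other dbdb libraries, left out, this difference was -0.64 ± 0.37 (adjusted p = 0.44, limma). In dbR vs. control, 10 of 12 were lower and none higher, where 24.1% of all genes were called and 11.8% as lower, with a median of -1.39.

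**Figure D3:**
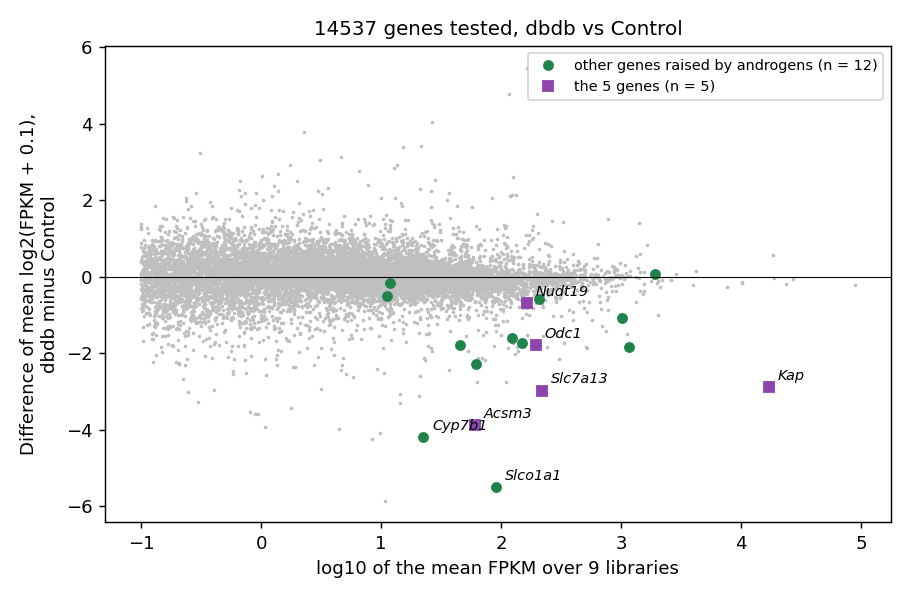
Difference of mean log2(FPKM + 0.1) between dbdb and control against the log10 of the mean FPKM over 9 libraries, for 14537 genes (grey), the 5 genes (squares) and 12 other genes raised by androgens (circles). Kap lies at -2.88 with a level far above that of the other genes marked, and Slco1a1 is the lowest of the genes marked, at -5.49.

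Genes with the opposite sex bias in the kidney were also looked at. Of 4 genes known to be higher in females, 3 were higher in dbdb than in control (13.1% of all genes tested were called as higher), and 3 were higher in dbR than in control (12.3%). Cyp4a14, a fatty acid ω-hydroxylase that PPARα also raises, had 4.67, 6.27 and 5.70 in control and 183, 151 and 134 in dbdb, a log2 difference of 4.79 ± 0.14 (adjusted p = 1.3e-07, limma). Oat, ornithine aminotransferase, which draws on the substrate of Odc1, had 111, 105 and 83.5 in control and 173, 185 and 184 in dbdb, a log2 difference of 0.86 ± 0.10 (adjusted p = 0.00035, limma). Prlr, the prolactin receptor, was higher by 1.21 ± 0.37 (adjusted p = 0.035, limma), with control replicate 3 at 5.32 and the other control libraries at 16.9 and 17.8. Without control replicate 3 the difference of Prlr was 0.64 ± 0.10 (adjusted p = 0.0026, limma), and its call was lost under 7 of 19 alternatives, with adjusted p up to 0.095. In dbR vs. control Prlr was higher by 1.39, or 0.83 without control replicate 3, and this call was lost without dbR replicate 1 (adjusted p = 0.069, limma) and without dbR replicate 3 (adjusted p = 0.054, limma). Slc7a12, the female-biased relative of Slc7a13, had 26.1, 22.7 and 12.8 in control and 17.9, 25.9 and 15.4 in dbdb, and was not called (-0.03 ± 0.33). In dbR vs. dbdb 0 of the 4 were called, with a median of 0.28 and all 4 values above 0. Oat alone was under 0.05 before adjustment (limma), as were 2541 of all 14537 genes tested.

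Of 9 chaperones and cofactors of steroid receptors, 2 were higher and 3 lower in dbdb than in control, where 13.1% and 13.4% of all genes were called in these directions. In dbR vs. dbdb 0 of the 9 were called (limma), and 2 (Fkbp4 and Fkbp5) had an unadjusted p under 0.05, as had 2541 of all 14537 genes tested. Fkbp5, a co-chaperone that steroid hormones raise, was higher in dbdb than in control by a log2 difference of 1.85 ± 0.16 (adjusted p = 5.9e-05, limma), from 24.6, 14.7 and 17.4 in control to 57.6, 73.9 and 69.1 in dbdb. Its FPKM in dbR was 43.5, 41.7 and 42.5, below every dbdb library (-0.64 ± 0.16 against dbdb, adjusted p = 0.087, limma). The coactivator Ncoa4 was higher in dbdb than in control (0.79), and Hsp90ab1 (-0.65), Fkbp4 (-0.45) and the corepressor Ncor1 (-0.28) were lower, where the call of Ncor1 was lost under 3 of 19 alternatives. Hsp90aa1, which was far lower in control replicate 3 than elsewhere, was not called with all libraries (log2 difference 1.32, adjusted p = 0.50, limma), and without that library it was lower in dbdb than in control (-0.75, adjusted p = 0.0037, limma).

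Of 10 genes of androgen synthesis and breakdown, 7 passed the filter, and 3 of these were lower in dbdb and none higher (of all genes tested 13.4% were lower). Srd5a2, a reductase that turns testosterone into dihydrotestosterone, had 7.72, 4.97 and 22.1 in control and 2.25, 1.18 and 1.38 in dbdb, a log2 difference of -2.54 ± 0.46 (adjusted p = 0.0035, limma). The mean ratio of control to dbdb for Srd5a2 was 7.24, and 3.96 without control replicate 3. Hsd17b2, which oxidises testosterone to androstenedione, had 6.09, 5.35 and 11.6 in control and 0.997, 0.728 and 0.881 in dbdb, a log2 difference of -2.93 ± 0.32 (adjusted p = 0.00020, limma). Akr1c21 was lower by a smaller step (-0.45 ± 0.12), a call lost under 3 of 19 alternatives. Its FPKM was 1780, 1700 and 1625 in control, 1363, 1322 and 1080 in dbdb, and 1407, 1829 and 1626 in dbR, where it was above every dbdb library and overlapped with control (0.37 ± 0.12 against dbdb, adjusted p = 0.17, and -0.08 ± 0.12 against control, adjusted p = 0.69, limma). Srd5a1 (-0.33 ± 0.15) and Srd5a3 (-0.24 ± 0.10), the other reductases of the list, were not called. Hsd17b6 and Cyp19a1 were listed at 0 in all libraries. Between dbR and dbdb 0 of the 7 genes were called (limma), and the log2 differences lay between 0.02 and 0.45. An unadjusted p under 0.05 was found for 2 of the 7, and for 2541 of all 14537 genes tested. Against control, Srd5a2 (-2.09, or -1.49 without control replicate 3) and Hsd17b2 (-2.89) were lower in dbR too, and none of the 7 was higher.

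**Figure D4:**
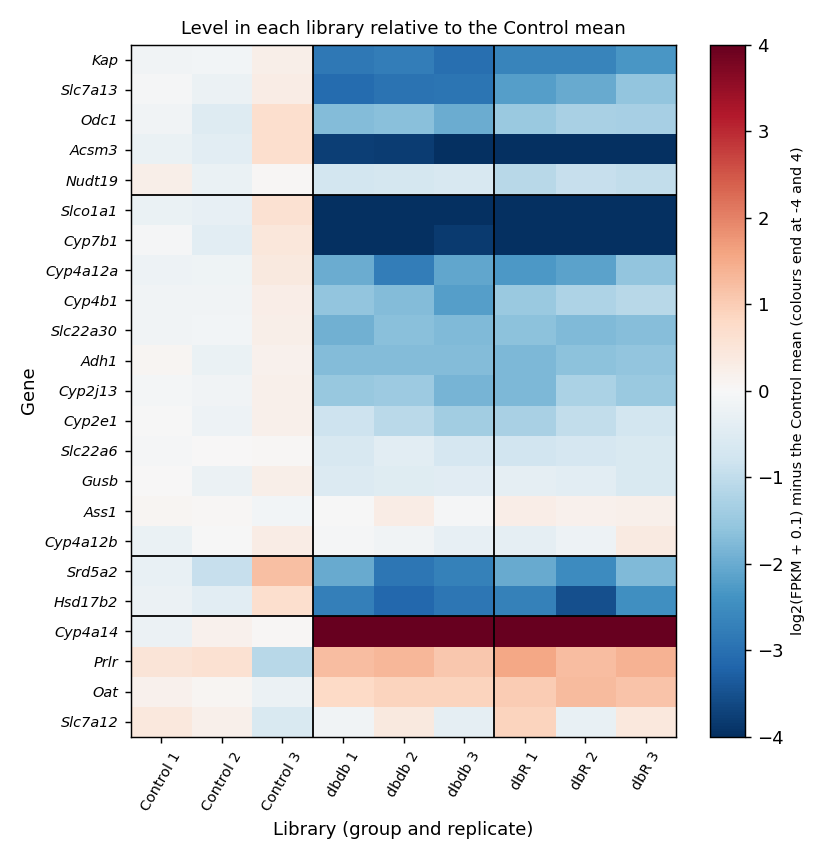
log2(FPKM + 0.1) minus the control mean in each library (colours end at -4 and 4) for, from top to bottom, the 5 genes, 12 other genes raised by androgens, Srd5a2 and Hsd17b2, and 4 female-biased genes. The dbdb and dbR columns are blue for the 5 genes and for 10 of the 12, and red for Cyp4a14, Prlr and Oat. Control replicate 3 is the control column of highest level for 4 of the 5 genes and 11 of the 12.

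Of 20 partners and relatives of the 5 genes 19 passed the filter, and their log2 differences in dbdb vs. control lay between -0.99 and 0.67. Of these, 2 were higher (13.1% of all genes tested) and 6 lower (13.4%), with a median of -0.07. Slc3a1 (rBAT), the heavy chain with which Slc7a13 forms a transporter, was lower (log2 difference -0.39 ± 0.06, adjusted p = 0.0013, limma), and its FPKM of 283, 278 and 302 in control and 217, 228 and 214 in dbdb did not overlap. Slc3a2, the heavy chain of other Slc7 transporters, was higher (0.67 ± 0.10, adjusted p = 0.0011, limma), and Slc7a9, the usual partner of Slc3a1 in the early tubule, was not called (0.16 ± 0.07). In polyamine metabolism, the antizymes Oaz1 (-0.20 ± 0.08) and Oaz2 (-0.07 ± 0.06), the spermidine and spermine synthases Srm (-0.05 ± 0.07) and Sms (-0.09 ± 0.09), and Amd1 (-0.04 ± 0.09) were not called. Sat1, which acetylates polyamines for export, was lower (-0.39 ± 0.08) and the oxidase Paox was higher (0.42 ± 0.13), a call lost under 11 of 19 alternatives, with adjusted p (limma) of 0.019 to 0.12 over them.

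Acsm3 stands in a cluster on chromosome 7 with 4 other Acsm genes. Acsm2 (160 kb from Acsm3), the most abundant of them, had 2662, 2737 and 3376 in control and 1514, 1481 and 1386 in dbdb, a log2 difference of -0.99 ± 0.11 (adjusted p = 0.00023, limma). Acsm1 (98.4 kb) was lower by a log2 difference of -0.70 ± 0.10, Acsm5 (215 kb) was not called (-0.28 ± 0.14), and Acsm4 (46.4 kb), the nearest, was at or near 0 in all libraries. The difference of Acsm3 was thus -3.88 while those of its measured neighbours lay between -0.99 and -0.28. Among the relatives of Nudt19, Nudt8 (-0.65 ± 0.15) and Nudt12 (-0.43 ± 0.08) were lower and Nudt7, the peroxisomal coenzyme A hydrolase best known from liver, was not called (0.24 ± 0.08). None of the 19 was called in dbR vs. dbdb (limma), where 6 had p under 0.05 unadjusted, as had 2541 of all 14537 genes tested.

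Among 11610 other genes that averaged an FPKM of 1 or more, the pattern most like the mean of the 5, each first centred and divided by its SD over the 9 libraries, was that of Adh1 (Pearson r = 0.998, n = 9 libraries, no test). Adh1 had 295, 232 and 314 in control, 82.8, 83.8 and 83.0 in dbdb and 79.7, 89.1 and 93.6 in dbR. It was followed by Dnajc22, Frzb, Ehhadh, Mpv17l, Ankib1, Amacr, Fuca2, Aldh3a2 and Ghr, with r between 0.993 and 0.996. The r of each member with the mean that holds it was 0.991 for Kap, 0.988 for Acsm3, 0.965 for Odc1, 0.953 for Slc7a13 and 0.911 for Nudt19. All of these r values include the step between control and the other groups. Ranked on deviations from the group means, 3 of the 10 genes remained among the 10 most alike.

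Of 9 markers of the whole proximal tubule, 1 was lower in dbdb than in control (Slc27a2, -0.66) and none higher, where 13.4% of all genes were lower and 13.1% higher. An unadjusted p under 0.05 (limma), in either direction, was found for 6 of the 9 and for 5636 of all 14537 genes tested. The summed FPKM of the 9 was lower in every dbdb library (5349 to 6463) than in every control library (6510 to 6997). Of 5 markers of S3, the segment in which Slc7a13 is placed, 3 were lower (Atp11a, -2.02; Slc22a13, -0.84; Slc1a1, -0.55), while Slc5a1 (19.2, 18.0 and 21.1 in control, 21.1, 22.1 and 19.3 in dbdb) and Slc16a9 were not called. The summed FPKM of the 5 ranged from 384 to 470 in control, from 193 to 222 in dbdb and from 181 to 208 in dbR. Most of this step was that of Atp11a, which ranged from 229 to 304 in control and from 58.9 to 71.4 in dbdb. The sum of the other 4 ranged from 155 to 168 in control, from 133 to 150 in dbdb and from 131 to 146 in dbR. Of 4 markers of the earlier segments, 2 were higher and none lower (the call of Slc5a2 was lost under 4 of 19 alternatives).

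Markers of other cell types in dbdb vs. control are read beside the same shares of all genes, 13.1% called as higher and 13.4% as lower. Those of the distal tubule were higher in 3 of 3 cases, those of podocytes in 2 of 5 and those of the collecting duct in 1 of the 3 that passed the filter, with none lower. Those of endothelium were lower in 4 of 4, those of immune cells in 4 of 5 and those of stroma in 1 of 4, with none higher. The call of the endothelial gene Cdh5 was lost under 9 of 19 alternatives, with adjusted p (limma) of 0.030 to 0.13 over them, and those of Kdr and Pecam1 under 1 each. Of 4 genes of tubular injury 1 was higher (Lcn2, 1.35, a call lost under 0 of 18 alternatives) and 1 lower (Havcr1, -0.91, a call lost under 6 of 18). Of 2 markers of the thick limb 0 were called, and 0 of the 2 adipocyte markers that passed the filter. In dbR vs. dbdb, 2 of 4 endothelial markers, 1 of 4 of stroma and 1 of 3 of the collecting duct were higher and none lower, where 0.564% of all genes were higher. These were Emcn, Kdr, Pdgfrb and Fxyd4, whose calls were lost under 4, 7, 6 and 10 of 19 alternatives. Of the adrenal genes, Cyp11b1 and Cyp11b2 were listed at 0 in every library, Cyp21a1 was at most 0.0193 and Mc2r ranged from 0.0255 to 0.425. Star, a gene of steroid synthesis, had an FPKM of 0.597, 0.943 and 0.769 in control and 1.21, 1.10 and 1.37 in dbdb, without overlap, and was not called. The part of these markers in the differences of the 5 genes was not tested.

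Among the lncRNA genes with an FPKM and a position that were analysed here, none lay within 100 kb of Kap, Acsm3 or Nudt19. The antisense gene that overlaps Nudt19, B230322F03Rik, is a noncoding neighbour that is not analysed here. A locus that the authors assembled on the minus strand of chromosome 12 (chr12:17465018-17474906) lay 69.9 kb from Odc1 and had a summed FPKM of 5.09, 4.20 and 5.31 in control, 4.39, 5.04 and 2.84 in dbdb, and 7.17, 6.72 and 7.34 in dbR. All dbR libraries were above all others (exact permutation test, two-sided, p = 0.1 against dbdb, adjusted p = 0.2 over 6 such tests), and 0.1 is the smallest p that 3 libraries against 3 allow. Control and dbdb overlapped at this locus (exact permutation p = 0.4, adjusted p = 0.4). Near Slc7a13, at 98.5 kb, lay the annotated lncRNA Gm12354 (chr4:19716732-19720199, minus strand), with an FPKM of 0.685, 0.346 and 0.432 in control, 0.121, 0.351 and 0.228 in dbdb, and 0.0978, 0.107 and 0.124 in dbR. Its control libraries were all above the dbR libraries (exact permutation p = 0.1, adjusted p = 0.2). The dbdb libraries overlapped with those of control and with those of dbR (exact permutation p = 0.2 and adjusted p = 0.24 in each comparison).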

How the data were processed

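RNA of the renal cortex of 9 mice (3 per group, 1 library each) was analysed. Per the submitters' processing notes and the study's methods, the authors aligned directional read pairs to GRCm38.p2 with TopHat2 2.0.9, assembled transcripts with Scripture and Cufflinks 2.1.1, and deposited the FPKM that Cufflinks gave each transcript. Read counts are not part of such values, so the precision of a level is judged from replicates alone, and the division of a gene's reads between transcripts is that of Cufflinks. FPKM was summed per gene identifier. Those whose FPKM averaged 0.1 or more (14537 of 21950) were fitted as log2(FPKM + 0.1) with limma 3.58.1 (R 4.3.3) in 1 model of 3 groups over all 9 libraries, letting the variance follow the level. The comparisons were dbdb vs. control, dbR vs. dbdb and dbR vs. control, with Benjamini-Hochberg adjustment over all genes tested. The pseudocount makes differences of low genes too small. On simulated data with 200 of 14537 genes changed, a log2 change of 1 was recovered in 79.0% of them in dbdb vs. control (11 false calls of 169), 82.0% in dbR vs. dbdb (5 of 169) and 80.0% in dbR vs. control (9 of 169), and a change of 2 in 94.5%, 96.0% and 96.0%. The simulated spread was normal and independent between genes, and far more than 200 genes were called against control (3840 in dbdb, 3497 in dbR). These rates are thus those of the simulation and were not measured for the comparisons themselves. Groups and replicate numbers are those of the sample titles.

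The members and the gene lists were chosen with earlier results of these data known, so the 5 members have no p-value, and counts over lists are read beside the share of all genes called. The genes named are the members, the lists and the 10 genes most like the members. Results of some genes of the lists are not reported here. Alternatives were pseudocounts of 1 and 0.01, other filters and scalings, only the 6 libraries of a comparison, a block for the replicate number, the highest transcript per gene, and each library left out in turn. Positions are from GENCODE M21 (GRCm38), and start regions from RefSeq (GRCm38.p6), where 4 of the 5 members matched. Python 3.11.15, pandas 2.3.3, numpy 2.4.6 and matplotlib 3.10.9 were used.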

Additional observations from a re-analysis of the deposited data

How the results depend on the processing

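The log2 differences of the 5 genes kept their direction in all 285 values from the alternatives, and 282 moved by less than the spread between replicates. The other 3 are those of Kap under quantile normalization, which gives the same set of values to every library: -2.19 in dbdb vs. control, 0.10 in dbR vs. dbdb and -2.09 in dbR vs. control. Leaving out each library in turn gave -4.09 to -3.54 for Acsm3, -3.09 to -2.83 for Slc7a13, -2.95 to -2.75 for Kap, -2.05 to -1.45 for Odc1 and -0.83 to -0.58 for Nudt19 in dbdb vs. control. In dbR vs. dbdb it gave 0.86 to 1.18 for Slc7a13, 0.33 to 0.48 for Odc1, 0.24 to 0.40 for Kap, -0.44 to -0.28 for Acsm3 and -0.35 to -0.27 for Nudt19. The other androgen-raised genes called as lower numbered 10 of 12 against control, in dbdb as in dbR, under every alternative, and 0 of 12 were called in dbR vs. dbdb. Of 1933 alternative values of called genes of the lists, cell type markers included, 1807 kept their call and 126 lost it, and none turned its direction.

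The number of genes called in dbR vs. dbdb, 108, was 31 without the filter, 166 with a mean FPKM of at least 1, 203 with scaling to the 75th percentile, 234 with quantile normalization, 22 with only the 6 libraries of the comparison and 49 with the highest transcript per gene. Leaving out 1 library gave 2 to 141 (2 without dbR replicate 2, 10 without dbR replicate 3, 31 and 36 without dbdb replicates 2 and 1, and 70 without dbR replicate 1). The cause was not tested. The counts against control were less sensitive, and with 1 library left out they were 2761 to 3830 for dbdb vs. control and 2479 to 3569 for dbR vs. control. Scaling without the mitochondrial genes and Kap gave 2080 higher and 1437 lower genes in dbdb vs. control, against 1899 and 1941, and 55 and 51 in dbR vs. dbdb, against 82 and 26. Scaling to the 75th percentile gave 2210 and 1336 in dbR vs. control, against 1786 and 1711. Ranked on deviations from the group means, 3 of the 10 genes most like the members remained.

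The groups share replicate numbers, but same-numbered libraries did not deviate together (9 correlations of deviations, from -0.17 to 0.06, and 2 of 9 libraries correlated best with their own number). With the replicate number as a block, 23 genes were called in dbR vs. dbdb, and 3345 (dbdb) and 3030 (dbR) against control. With 3 mice per group and no read counts, small differences between dbR and dbdb are near the limit of what these libraries resolve.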
